A study of Rattus norvegicus with 22 samples.

Results

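The 10 genes described here act in transforming growth factor beta (TGF-beta) and activin signaling: the ligands Tgfb1, Tgfb2, Tgfb3 and Inhba, the receptors Tgfbr1 and Tgfbr2, the intracellular mediators Smad3 and Smad7, and the latency proteins Ltbp1 and Nrros. They were taken by name from a gene count table of 17172 genes, and each of the 10 was among the 12875 genes with enough counts to test. The RNA-seq libraries came from the hippocampus on the injured (right) side of 14 adult male Sprague-Dawley rats. Of these, 8 received a lateral fluid percussion injury (TBI), in which a pulse of fluid strikes the exposed dura, and 6 were sham controls that had the same craniectomy and anesthesia without the pulse. Tissue was taken after 1 day (2 sham, 4 TBI) or 14 days (4 sham, 4 TBI), and each library is 1 rat, so a sham rat at day 1 was itself 1 day from surgery. The question was which of these genes differed between TBI and the time-point-matched sham group, at which day, and whether the difference held against the other sham baseline.

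TGF-beta ligands are secreted in a latent complex with their own propeptide, which latent TGF-beta binding proteins hold in the extracellular matrix and which Nrros holds on microglia and macrophages. Once released, the ligand brings a type II and a type I receptor kinase together, and the type I receptor phosphorylates SMAD2 and SMAD3, which enter the nucleus with SMAD4; SMAD7 is an induced inhibitor of the same receptors. In the brain, TGF-beta1 is made mainly by microglia and macrophages and acts on microglial maturation, astrocyte reactivity and matrix deposition after injury, while TGF-beta2 and TGF-beta3 are made by neurons and glia.

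Libraries held 15065540 to 23743703 counts. Levels are given as CPM, read counts relative to the library size scaled by TMM, and are compared within a gene only, since gene lengths were not used here. Markers of hippocampal neurons (7 genes) had counts in every library, with a summed level of 8097 to 10055 CPM in sham day 1 and 2957 to 6459 CPM in TBI day 1. Choroid plexus content differed between libraries. The summed level of 10 choroid plexus markers reached 10741 CPM in sham day 1 replicate 1, 2039 in TBI day 14 replicate 2 and 8572 in TBI day 14 replicate 3, against 113 to 240 in the others. Otx2, a defining factor of that epithelium, was at 0 in all 14 libraries. Where leaving out these 3 libraries changed a time-matched call on 1 of the 10 genes, or removed a call in another comparison, the value without them is given. Because the tissue was bulk, fewer cells of a type and less RNA per cell cannot be told apart.

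At day 1, 4 of the 10 genes differed between TBI and sham at an adjusted p-value under 0.05: Tgfb1 and Nrros rose, and Tgfb2 and Smad7 fell. At day 14, Tgfb1 and Nrros were again higher in TBI. Of all tested genes, 19.1% passed at day 1 (11.2% higher, 7.93% lower) and 4.43% at day 14 (4.07% higher, 0.365% lower), by edgeR's quasi-likelihood test with Benjamini-Hochberg adjustment over all tested genes. The median log2 fold change of the 10 was -0.01 at day 1 and 0.22 at day 14, against -0.02 and -0.03 over all tested genes. The samples of TBI and sham did not overlap for 30.8% of all tested genes at day 1 (16.7% higher, 14.1% lower in TBI) and for 15% at day 14 (9.13% higher, 5.86% lower), among the 10 for 4 genes at day 1 and for 6 at day 14. None of the 10 was called lower at day 14 by edgeR, limma-voom or DESeq2, and 1 (Tgfb3) was lower at an unadjusted p under 0.05. Tgfb1 was the gene whose TBI samples lay above every sham sample, at both days and against either sham baseline. Of the other 3 called genes, none passed at day 1 when TBI was set against sham day 14 in place of sham day 1.

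**Figure D1:**
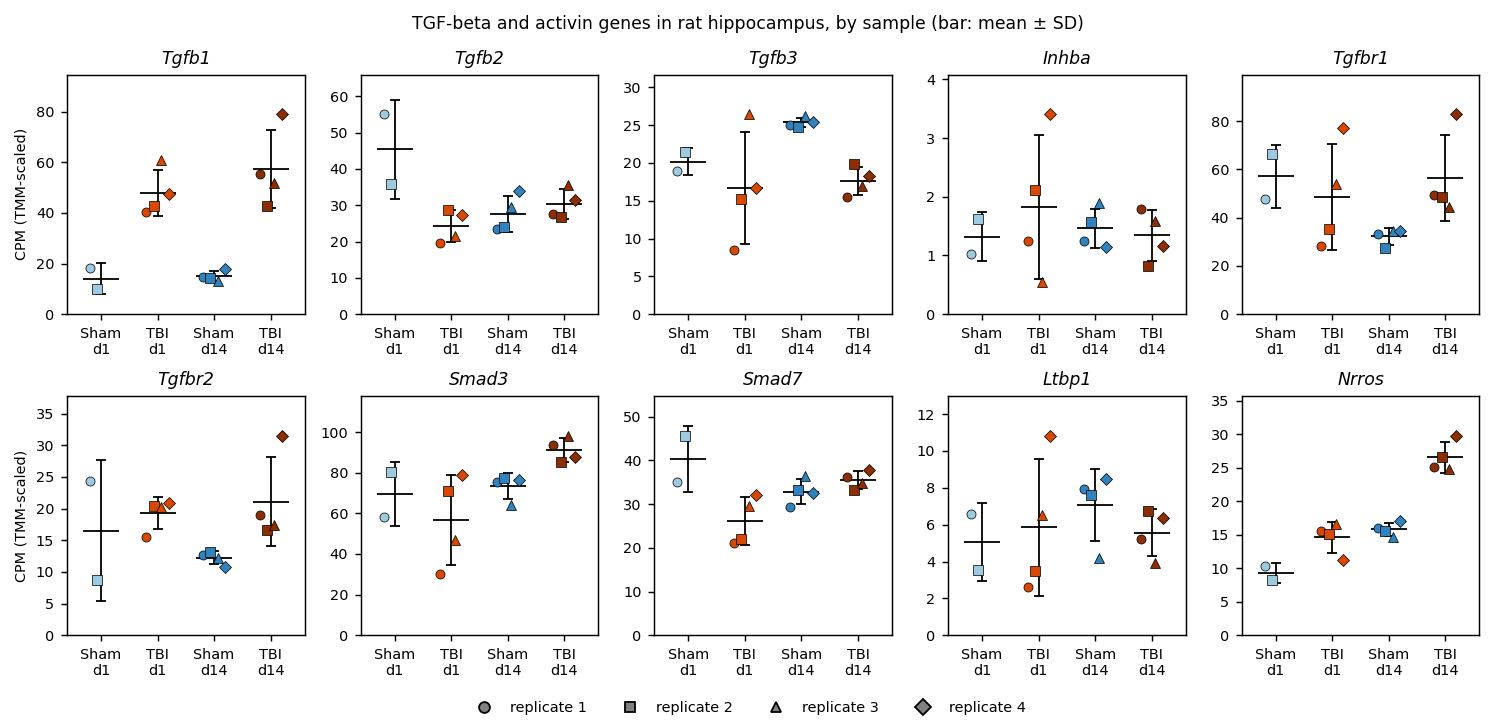
CPM of each of the 10 genes (y axis, linear, from 0) in every library, by group (x axis); points are rats, horizontal lines the group mean, and error bars 1 SD (n = 2 for sham day 1, n = 4 for the others). Tgfb1 is the gene whose 8 TBI samples (40.5 to 78.9 CPM) all lie above its 6 sham samples (9.77 to 18.3 CPM), and Nrros is highest in TBI day 14.

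Among the ligands, Tgfb1, the main TGF-beta isoform of microglia and macrophages, showed the largest difference. It measured 18.3 and 9.77 CPM in the 2 sham rats at day 1 and 40.5, 42.8, 60.9 and 47.3 CPM in the 4 TBI rats. At day 14 it measured 14.7, 14.5, 13.1 and 18.0 CPM in sham and 55.5, 42.8, 51.9 and 78.9 CPM in TBI. The ranges of TBI and sham did not overlap at either day, and the highest sham rat of all stood below the lowest TBI rat. The means were 14.0 ± 6.00 (SD, n = 2) and 47.9 ± 9.12 CPM (n = 4) at day 1, and 15.1 ± 2.06 and 57.3 ± 15.4 CPM (n = 4 each) at day 14. Tgfb1 rose 3.42-fold at day 1 (log2 fold change 1.77, SE 0.29, edgeR adjusted p = 0.000745) and 3.80-fold at day 14 (1.93, SE 0.22, adjusted p = 8.59e-05). The log2 effect at day 1 minus that at day 14 was -0.15, which did not pass the test (adjusted p = 0.844). The 2 TBI groups overlapped, and so did the 2 sham groups. Without the 3 libraries with high choroid plexus markers, an alternative added after seeing the data, the log2 fold changes of Tgfb1 were larger, 2.28 at day 1 and 2.18 at day 14.

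Markers of 2 cell types that make Tgfb1, infiltrating myeloid cells and microglia, were not called alike at the 2 days. At day 1, all 5 measured markers of infiltrating myeloid cells rose, from a summed 28.5 to 50.2 CPM in sham to 256 to 488 CPM in TBI, while of 7 microglial markers 1 rose and 2 fell (389 to 598 CPM in sham, 540 to 637 in TBI). At day 14 the order was the other way around: 6 of the 7 microglial markers rose (439 to 557 CPM in sham, 902 to 1570 in TBI), and 2 of the 5 infiltrating myeloid markers did (28.8 to 34.5 and 60.8 to 193 CPM). No microglial marker was at 0 in any library, and 1 myeloid marker, S100a8, was at 0 in 3 of 14. The part of these cells in the Tgfb1 result was not tested. In TBI day 14 replicate 4, Tgfb1 and the summed markers of both cell types were the highest of their group.

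Tgfb2, an isoform that neurons and glia make, moved the opposite way at day 1. It measured 55.0 and 35.8 CPM in sham and 19.7, 28.7, 21.6 and 27.3 CPM in TBI, so that each TBI rat lay below both sham rats. It fell by 0.90 on the log2 scale (SE 0.21, edgeR adjusted p = 0.00883), or 1.86-fold. In a fit of the 6 day 1 libraries alone Tgfb2 did not pass (-0.88, adjusted p = 0.0902). Nor did it with all 6 sham rats as 1 baseline (-0.46, adjusted p = 0.112). Sham replicate 1, the rat with the high choroid plexus markers, held the higher value, and without it the difference was -0.56 and did not pass (adjusted p = 0.112), nor did it without all 3 such libraries (-0.57, adjusted p = 0.122). Against sham day 14 (23.3, 23.9, 29.5 and 33.9 CPM) the same 4 TBI rats overlapped, with a log2 fold change of -0.19 (adjusted p = 0.419). Sham day 1 was itself above sham day 14, by 0.71 (adjusted p = 0.0316), a call that is also lost without sham day 1 replicate 1 (0.37, adjusted p = 0.307), without sham day 14 replicate 1 (0.64, adjusted p = 0.081) or 2 (0.65, adjusted p = 0.0812), and without the 3 libraries with high choroid plexus markers (0.38, adjusted p = 0.324). At day 14, TBI measured 27.5, 26.7, 35.6 and 31.4 CPM and overlapped sham (0.13, adjusted p = 0.872).

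Tgfb3, the remaining TGF-beta isoform, measured 25.0, 24.8, 26.2 and 25.4 CPM in sham day 14 and 15.5, 19.8, 16.9 and 18.3 CPM in TBI day 14. Every TBI rat was below every sham rat. The log2 fold change of -0.52 (SE 0.24) nevertheless missed the threshold in the fit over all 14 libraries (edgeR adjusted p = 0.345). In a fit of the 8 day 14 libraries alone it passed, at -0.49 (SE 0.10, adjusted p = 0.00923). At day 1 its values were scattered, with 18.9 and 21.4 CPM in sham and 8.51, 15.2, 26.4 and 16.7 CPM in TBI, and the groups overlapped (-0.27, adjusted p = 0.536). TBI day 1 replicate 1, the lowest of those 4 for Tgfb3, was also the lowest in summed neuronal markers, at 2957 CPM against 6126 to 6459 in the other 3.

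Inhba encodes the beta A subunit of activin A, a ligand that acts through the same SMADs. Its counts were low, 12 to 76 a library (0.55 to 3.40 CPM). Its lowest and highest rats were both in TBI day 1, and TBI overlapped sham at day 1 (0.47, edgeR adjusted p = 0.588) and at day 14 (-0.13, adjusted p = 0.968). The 95% interval at day 1 was -0.72 to 1.65 on the log2 scale, so that the direction of any difference was not resolved. The log2 CPM of the 4 TBI day 1 rats had an SD of 1.04.

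The receptors passed neither time-matched test. Tgfbr1, the type I receptor, measured 33.0, 27.2, 34.3 and 34.6 CPM in sham day 14 and 49.5, 48.6, 44.2 and 82.7 CPM in TBI day 14. Tgfbr2, the type II receptor that binds ligand first, measured 12.7, 13.2, 12.2 and 10.8 CPM in sham and 18.9, 16.6, 17.3 and 31.5 CPM in TBI at that day. For both receptors every TBI rat was above every sham rat, as for 9.13% of all tested genes, and replicate 4 of TBI, the library with the highest microglial and Tgfb1 values, was the highest. The log2 fold changes were 0.80 (SE 0.27, edgeR adjusted p = 0.155) for Tgfbr1 and 0.79 (SE 0.27, adjusted p = 0.156) for Tgfbr2. Fitted on the 8 day 14 libraries alone, both passed (0.84, adjusted p = 0.0145, and 0.82, adjusted p = 0.0202).

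At day 1 the receptor comparison rested on sham libraries that differed from each other. Tgfbr2 measured 24.4 CPM in sham replicate 1 and 8.67 in replicate 2, on either side of the TBI rats at 15.5, 20.4, 20.3 and 20.8 CPM. The difference was 0.23 (SE 0.33, edgeR adjusted p = 0.663). Leaving out sham replicate 1 raised it to 1.15 (adjusted p = 0.0242), and leaving out replicate 2 turned it to -0.34. Without the 3 libraries with high choroid plexus markers, Tgfbr2 was higher in TBI at day 1 (1.14, adjusted p = 0.0212) and at day 14 (1.07, adjusted p = 0.00803). Tgfbr1 spread over 28.2, 35.1, 53.8 and 77.0 CPM in TBI day 1 and over 47.8 and 66.3 CPM in sham, and the groups overlapped (-0.23, adjusted p = 0.651).

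Of the SMADs, Smad7, the inhibitor that TGF-beta itself induces, was the one that passed. It measured 35.0 and 45.7 CPM in sham day 1 and 21.2, 22.0, 29.5 and 32.1 CPM in TBI day 1, with no overlap. Smad7 fell by 0.62 on the log2 scale (SE 0.18, edgeR adjusted p = 0.0225), or 1.54-fold. The call was lost without sham replicate 2 (-0.42, adjusted p = 0.294) and without TBI replicate 2 (-0.55, adjusted p = 0.0514), and was kept without the 3 libraries with high choroid plexus markers (-0.82, adjusted p = 0.0251). At day 14 it measured 29.3, 33.2, 36.3 and 32.6 CPM in sham and 36.2, 33.2, 34.7 and 37.9 CPM in TBI, which overlapped (0.11, adjusted p = 0.869). From day 1 to day 14 after TBI, Smad7 rose by 0.44 (adjusted p = 0.0273), and each day 14 rat was above each day 1 rat. That call was lost without TBI day 1 replicate 1 (0.35, adjusted p = 0.0621) or 2 (0.36, adjusted p = 0.0821), or TBI day 14 replicate 1 (0.43, adjusted p = 0.0593) or 4 (0.41, adjusted p = 0.0691).

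Smad3, the receptor-activated SMAD, measured 75.6, 77.4, 64.1 and 76.5 CPM in sham day 14 and 93.6, 85.2, 98.3 and 87.7 CPM in TBI day 14. The TBI rats were all higher, but the log2 fold change of 0.31 did not pass (SE 0.22, edgeR adjusted p = 0.675), other than in the fit of the 8 day 14 libraries alone (0.35, adjusted p = 0.0276). At day 1, TBI rats measured 30.3, 70.8, 47.0 and 79.1 CPM around sham values of 58.2 and 80.5 CPM (-0.29, adjusted p = 0.486). Between the TBI groups, Smad3 was higher at day 14 than at day 1 by 0.68 (adjusted p = 0.0255), without overlap. This call was lost without the 3 libraries with high choroid plexus markers (0.71, adjusted p = 0.078), without TBI day 1 replicate 3 (0.60, adjusted p = 0.0714) and without TBI day 14 replicate 1 (0.67, adjusted p = 0.0536).

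The 2 latency proteins differed in their results. Nrros, also called LRRC33, anchors latent TGF-beta1 on microglia and macrophages. It measured 10.3 and 8.25 CPM in sham day 1 and 15.6, 15.1, 16.5 and 11.3 CPM in TBI day 1. In the later groups it measured 16.0, 15.6, 14.7 and 17.1 CPM in sham and 25.1, 26.7, 24.8 and 29.8 CPM in TBI. TBI lay above time-matched sham at both days without overlap, and all 4 TBI day 14 rats stood above every other library of the series. Nrros rose 1.57-fold at day 1 (log2 fold change 0.65, SE 0.18, edgeR adjusted p = 0.0195) and 1.68-fold at day 14 (0.75, SE 0.14, adjusted p = 0.00433). The day 1 call was lost without sham replicate 2 (0.50). It was also lost in a fit of the 6 day 1 libraries alone (0.68, adjusted p = 0.199). With all 6 sham rats as 1 baseline the difference was 0.10 and did not pass (adjusted p = 0.718). Without the 3 libraries with high choroid plexus markers the log2 fold changes of Nrros were 0.81 at day 1 and 0.82 at day 14. The study listed Nrros in its module vii, genes lowered at day 1 that had partly recovered at day 14. Neither time-matched comparison here had that direction. The study took sham day 14 as the baseline of its trajectories, and against it Nrros in TBI day 1 was at -0.12, which did not pass (edgeR adjusted p = 0.517).

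Nrros was lowest in sham day 1, which was below sham day 14 by 0.77 on the log2 scale (edgeR adjusted p = 0.0105), a call lost without sham day 1 replicate 2 (-0.62, adjusted p = 0.107), and TBI day 1 overlapped sham day 14 (-0.12, adjusted p = 0.517). Between the TBI groups Nrros was higher at day 14 by 0.86 (adjusted p = 0.000274). The microglial markers, 540 to 637 CPM in TBI day 1 and 902 to 1570 CPM in TBI day 14, ordered the TBI groups the same way, and their part in this difference was not tested. Ltbp1, the matrix-bound partner of the latent complex, ran from 2.59 to 10.8 CPM with both extremes in TBI day 1, and TBI overlapped sham at day 1 (0.22, adjusted p = 0.783) and day 14 (-0.34, adjusted p = 0.835).

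**Figure D2:**
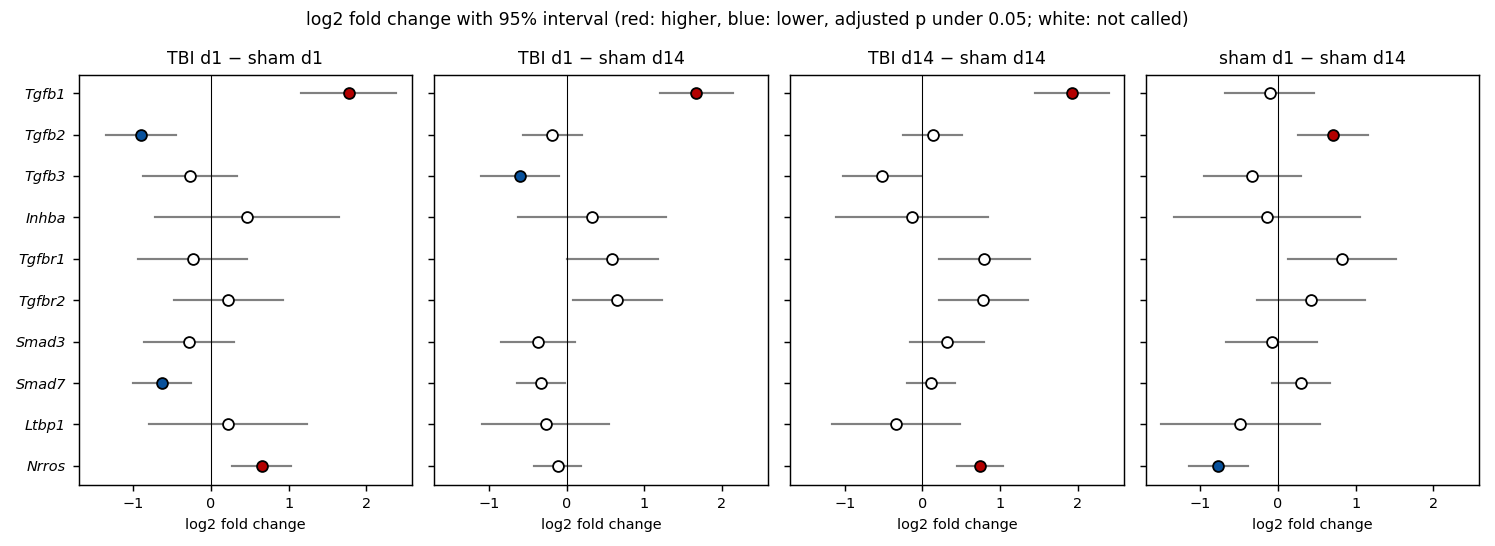
Log2 fold change (x axis) of each of the 10 genes with its 95% interval, for TBI day 1 against sham day 1, TBI day 1 against sham day 14, TBI day 14 against sham day 14, and sham day 1 against sham day 14; red points are higher and blue lower at an adjusted p-value under 0.05, and white points did not pass. Tgfb1 lies at 1.77, 1.67 and 1.93 in the 3 TBI comparisons, while the Nrros difference of 0.65 at day 1 becomes -0.12 against sham day 14.

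The time-matched comparisons at the 2 days were then compared with each other, and with the baseline that the study used for its trajectories, sham day 14. The comparison of TBI day 1 with sham day 14 shares its sham rats with the day 14 comparison. In it 2 of the 10 genes passed, where 46% of all tested genes did (25% higher, 21% lower): Tgfb1 rose (1.67, SE 0.22, edgeR adjusted p = 3.29e-05), and Tgfb3 fell by 0.60 (adjusted p = 0.0483), with overlapping samples and a call that was lost on leaving out any library but TBI day 1 replicate 3, and without the 3 libraries with high choroid plexus markers (-0.61, adjusted p = 0.0682). Between the sham groups 2 passed, Tgfb2 and Nrros, where 19.1% of tested genes did (11.3% higher, 7.88% lower in sham day 1). Between the TBI groups 3 were higher at day 14 (Smad3, Smad7 and Nrros) and none lower, where 39.5% of tested genes passed (17.6% higher, 21.9% lower). None of the 10 was lower at an unadjusted p under 0.05.

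The difference of the TBI effect between days passed for none of the 10 genes in the main edgeR fit or limma-voom, where 3.68% of tested genes passed in edgeR (2.24% relatively higher at day 1, 1.44% lower). At an unadjusted p under 0.05 there were 3: Tgfb2 (-1.03, edgeR adjusted p = 0.0538), Tgfbr1 (-1.04, adjusted p = 0.195) and Smad7 (-0.74, adjusted p = 0.0883), each relatively lower at day 1. DESeq2 called 2 of these, Tgfb2 (-1.03, adjusted p = 0.0127) and Smad7 (-0.75, adjusted p = 0.0402). The main edgeR fit therefore does not show that the TBI effect on Tgfb2 and Smad7 differed between the days, while an edgeR fit with a replicate block called both.

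**Figure D3:**
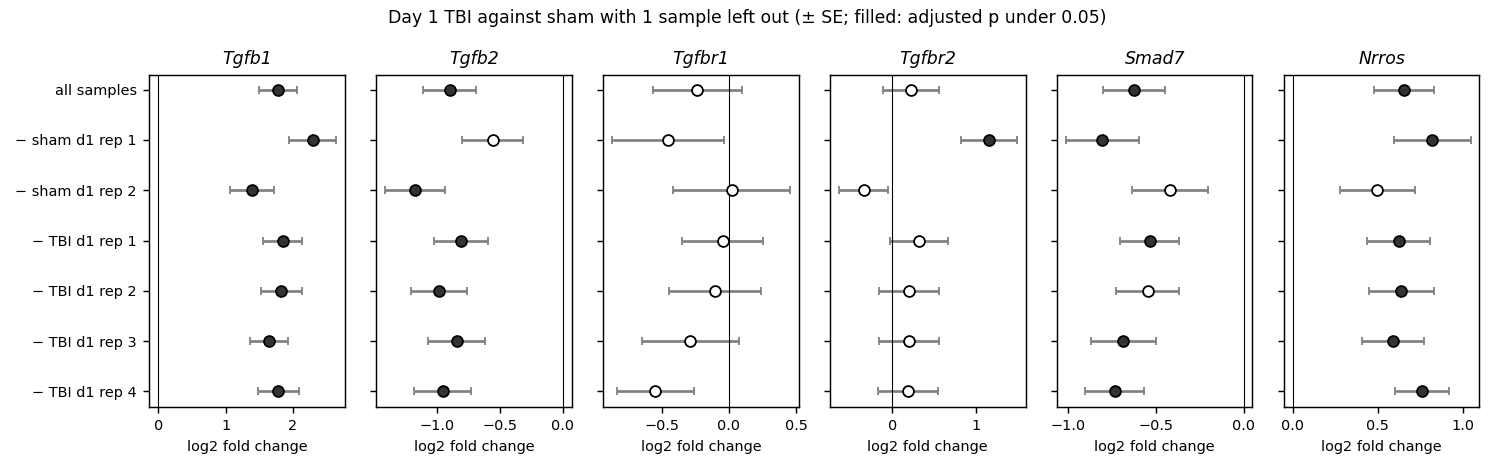
Log2 fold change of TBI day 1 against sham day 1 (x axis, error bars 1 SE) for 6 of the genes, with all libraries and with each day 1 library left out in turn (y axis); filled points passed an adjusted p-value of 0.05. Tgfb1 stays between 1.39 and 2.29 and passes each time, Tgfb2 loses its call without sham day 1 replicate 1, and Tgfbr2 runs from -0.34 to 1.15.

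The stretches before the transcription starts of the 2 genes that rose at both days and of the fallen ligand are shown for their base composition, from the RefSeq table of rat build GRCr8, in which all 10 genes were matched. They cover the 250 bases that end at the base before the annotated start, read 5′ to 3′ on the gene's strand, with each CG dinucleotide in capitals. The 3 windows lie at chr1:90324062-90324311 on the plus strand (Tgfb1), chr11:82133475-82133724 on the plus strand (Nrros) and chr13:100792686-100792935 on the minus strand (Tgfb2).
Tgfb1: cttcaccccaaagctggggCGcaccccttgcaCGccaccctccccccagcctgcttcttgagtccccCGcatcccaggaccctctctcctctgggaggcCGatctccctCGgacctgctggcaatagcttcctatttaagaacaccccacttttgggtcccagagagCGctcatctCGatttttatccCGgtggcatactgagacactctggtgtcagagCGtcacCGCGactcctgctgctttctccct
Nrros: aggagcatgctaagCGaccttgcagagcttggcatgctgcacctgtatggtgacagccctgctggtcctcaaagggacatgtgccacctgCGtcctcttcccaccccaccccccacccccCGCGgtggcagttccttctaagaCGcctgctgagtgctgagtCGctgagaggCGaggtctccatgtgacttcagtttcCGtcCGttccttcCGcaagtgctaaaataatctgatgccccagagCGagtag
Tgfb2: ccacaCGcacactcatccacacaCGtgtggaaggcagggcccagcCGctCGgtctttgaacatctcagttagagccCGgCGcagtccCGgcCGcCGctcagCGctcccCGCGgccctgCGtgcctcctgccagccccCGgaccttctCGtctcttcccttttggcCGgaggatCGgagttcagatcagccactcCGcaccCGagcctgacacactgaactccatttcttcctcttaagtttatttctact
These hold 11, 11 and 19 CG dinucleotides, where the median of 33469 rat promoters of this length is 5 and the quartiles are 2 and 15. Tgfb1 and Nrros thus exceed 66.4% of promoters and Tgfb2 exceeds 81.6%. Among the other genes the count ran from 2 in Inhba to 32 in Smad7. Both strands were searched for the SMAD palindrome GTCTAGAC (in 0.173% of promoters), the AP-1 motif TGANTCA (6.34%) and the CRE TGACGTCA (1.59%). The one match in the 10 windows was a CRE 108 bases before the start of Ltbp1, and the 4 genes called at day 1 held none of the 3 in this window.

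The wider pathway was followed in 62 further genes, of which 55 were tested. At day 1, 14 of the 55 were higher and 3 lower in TBI, and their log2 fold changes had a median of 0.36. The 14 include Fstl3, given below as a description with no test. Of all tested genes, 11.2% were higher and 7.93% lower at day 1. At day 14, 2 of the 55 were higher and 1 lower, and their median was -0.01. Of all tested genes, 4.07% were higher and 0.365% lower at day 14. These shares are also the background of each list below. The day 1 count fell to 6 higher and 1 lower without sham replicate 2, and to 7 and 0 in a fit of the 6 day 1 libraries alone. Without the 3 libraries with high choroid plexus markers it was 19 higher and 2 lower at day 1 and 3 higher and 1 lower at day 14.

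Of the other ligands none of 4 tested passed in edgeR at either day, and 1, Gdf11, was lower at day 1 (-0.33) at an unadjusted p under 0.05. Among 8 receptors and co-receptors, 2 endothelial ones rose at day 1: Eng (endoglin; 30.2 to 60.3 CPM in sham, 90.2 to 140.6 in TBI) by 1.31 (edgeR adjusted p = 0.00514) and Acvrl1 (ALK1) by 0.99 (adjusted p = 0.0312). Acvr2a, an activin type II receptor, fell by 0.82 (adjusted p = 0.0124). Among 10 genes of latency and activation, Lrrc32, which anchors latent TGF-beta on other cells as Nrros does on microglia, rose from 2.63 to 6.25 CPM in sham to 8.11 to 15.3 CPM in TBI (1.41, adjusted p = 0.0198). Ltbp2 (1.17) and Furin (0.61), the protease that cleaves the propeptide, rose too, but the Ltbp2 difference was -0.02 when all 6 sham rats formed 1 baseline. Without sham day 1 replicate 2 none of these 6 calls held, with Eng at 0.89, Acvrl1 at 0.60, Acvr2a at -0.44, Lrrc32 at 0.91, Ltbp2 at 0.64 and Furin at 0.47. Acvrl1 was also lost without TBI day 1 replicate 1 or 3, and Ltbp2 without TBI day 1 replicate 2. Endothelial and mural markers summed to 221 to 396 CPM in sham day 1 and 334 to 525 CPM in TBI day 1, with 1 of 7 higher, and their part in the rise of Eng, Acvrl1 and Lrrc32 was not tested.

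Of the 6 extracellular antagonists 1 is counted as higher at day 1: Fstl3, which binds activin, had 0 to 2 counts in the sham libraries and 14 to 72 in TBI. It stayed at or under 7 counts in every library outside TBI day 1, so it passed the low-count filter only through the group where it is high, and its values are a description with no test. The ratio of the summed counts, 145 in TBI to 2 in sham, scaled by library size, was 33.1 with an exact 95% interval of 9.01 to 276 that covers counting error only. Of 12 other SMADs and intracellular regulators, the corepressors Tgif1 (1.84, edgeR adjusted p = 0.000182) and Tgif2 (2.51, from 1 to 5 counts in sham, adjusted p = 0.00817) rose and Zfyve9, which presents SMADs to the receptor, fell by 0.69 (adjusted p = 0.0328). With each library left out in turn Tgif2 ran from 1.71 to 4.10 and Zfyve9 from -1.01 to -0.28; both calls were lost without sham day 1 replicate 2, and that of Zfyve9 also without TBI day 1 replicate 1 or 2. Tgif1 kept its call in all 14 such fits. Tgif1 rose again at day 14 (1.47, adjusted p = 0.000244).

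Of the list of known target genes, 6 of 15 were higher and 1 lower at day 1, with a median of 0.67. Of all tested genes, 11.2% were higher and 7.93% lower. Timp1, a metalloproteinase inhibitor, measured 1.34 to 4.96 CPM in sham and 224 to 288 CPM in TBI (log2 fold change 6.31, edgeR adjusted p = 2.46e-06). The cytoskeletal gene Tagln (3.45), the matrix genes Tgfbi (3.19) and Fn1 (2.59), and Id1 (1.30) rose as well. The gene that fell was Tsc22d1 (-0.48, adjusted p = 0.0353), named after its values were seen since it lies outside the naming rule, as does the last to rise, Junb (0.80). The calls of Id1 and Junb were lost without sham day 1 replicate 2, and that of Tsc22d1 in 6 of the 14 fits that leave out 1 library, among them those without either sham day 1 rat. Timp1, Tagln, Tgfbi and Fn1 kept theirs in all 14. Summed astrocyte markers were at 2975 to 4682 CPM in sham day 1 and 9802 to 15657 CPM in TBI day 1, with 1 of 5 called higher and none at 0. Their log2 fold changes ran from -0.68 to 3.10, with a median of 0.12 and 3 of the 5 above 0. The 5 infiltrating myeloid markers rose as given above. The part of astrocytes and infiltrating myeloid cells in the target genes' rise was not tested. At day 14 the target list held 1 higher gene, Timp1 (1.69, adjusted p = 0.00389), and 1 lower, Ctgf, a matricellular gene that was singled out after its values were seen (-0.99, adjusted p = 0.0412). The Ctgf call was lost in 7 of the 14 fits that leave out 1 library, namely replicate 1 or 2 of sham day 14, replicate 2 or 3 of TBI day 1, or replicate 1, 3 or 4 of TBI day 14. The median over the list at day 14 was 0.04, and 4.07% of all tested genes were higher and 0.365% lower.

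**Figure D4:**
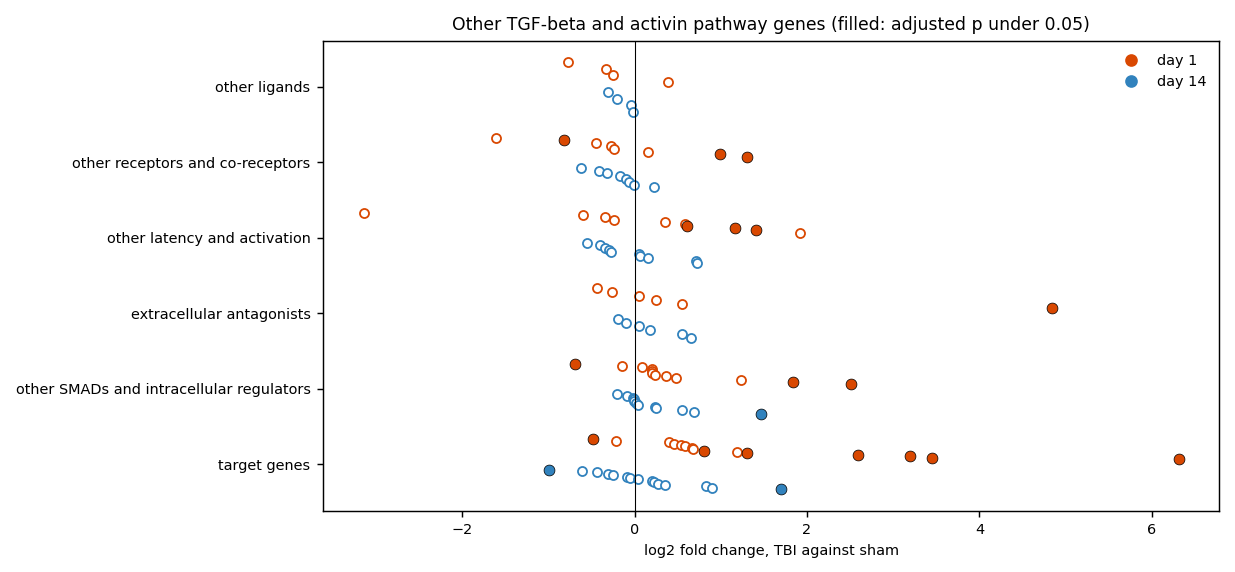
Log2 fold change of TBI against sham (x axis) for each tested gene of the wider pathway, grouped by list (y axis), at day 1 (orange) and day 14 (blue); filled points passed an adjusted p-value of 0.05. Target genes reach 6.31 at day 1 and 1.69 at day 14.

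Not all of these targets kept the course of Tgfb1 over time. Timp1 was higher in TBI at both days, as Tgfb1 was, with 2.52 to 4.03 CPM in sham day 14 and 6.80 to 12.5 CPM in TBI day 14. Fn1 measured 381 to 634 CPM in TBI day 1 but 40.8 to 73.5 CPM in TBI day 14, overlapping the 70.4 to 104 CPM of sham day 14, while Tgfb1 in those TBI day 14 rats was at 42.8 to 78.9 CPM. The TBI effect differed between days for 8 of the 55 wider pathway genes, each relatively higher at day 1 (as were 2.24% of all tested genes; Fstl3, above, is among the 8), and for none was it relatively lower in edgeR, 3 (Itgb5, Itgb6 and Tsc22d1) being so at an unadjusted p under 0.05. Of the 8, 6 are on the target list, among them Timp1 (difference 4.62, edgeR adjusted p = 0.000413) and Fn1 (3.20, adjusted p = 0.000529). Timp1, Tgfbi, Tagln and Fn1 held in all 14 fits that leave out 1 library, while the call was lost in 10 of them for Ctgf, 9 for Id1 and 8 for Ltbp2. Fstl3 stays a description with no test.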

How the data were processed

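RNA-seq of the ipsilateral hippocampus of 14 rats was used, with the groups taken from the labels. The authors prepared stranded mRNA libraries, aligned single-end reads to rn5 with STAR 2.4.2a and counted reads per UCSC gene with featureCounts 1.5.0, and the deposited values are raw counts per gene, whole numbers with no normalization. The authors used limma-voom. Here edgeR 4.0.16 (R 4.3.3) was used, with its default low-count filter, TMM scaling and the quasi-likelihood test. All 14 libraries entered a single model of 4 group means, so that the 2 sham day 1 rats borrow the spread of the rest. Two-sided p-values were Benjamini-Hochberg adjusted over 12875 genes and called below 0.05. Log2 CPM used a prior count of 2. Self-tests on simulated counts were run first.

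The 10 genes, the pathway lists and the cell type markers were chosen with earlier results of these data known. Of the target list, 1 gene is not reported here and was left out of its counts. All 10 genes are named; of the other pathway genes, up to 6 per list with an adjusted p under 0.05 at day 1 or day 14 were named, by largest log2 fold change. Alternatives were limma-voom 3.58.1, DESeq2 1.42.0 and its size factors, no filter, at least 10 counts in every library, a replicate block, only the groups compared, a threshold of 0.01, all 6 sham rats as 1 baseline, a choroid plexus score as covariate, and each library left out. Labels give separate replicates but do not say whether surgery or sequencing was batched. The study states that expression in its trajectories was corrected for a batch effect, without saying what the batches were. The main model here held no batch term. Whether the replicate numbers pair rats could not be decided from the counts. The H3K4me3 peak lists were not used here, since their rn5 positions could not be placed on these genes with the GRCr8 tables at hand. Precision rests on the spread between rats, since replicates differed by more than counting noise (chi-squared per degree of freedom 12.8 to 165 over 19 pairs).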

Additional observations from a re-analysis of the deposited data

Results flagged for a closer look

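In 3 of 30 gene and group sets of 4 rats, the rat at one end stood apart, by a gap to its neighbour over 0.829 of the group's range; chance alone gives about 1 set in 20. Tgfbr2 in TBI day 1 replicate 1 was lowest, with a gap of 0.916 of the range (15.5 CPM against 20.3 to 20.8 in the others). Smad3 in sham day 14 replicate 3 was lowest, at 0.874 of the range (64.1 against 75.6 to 77.4 CPM). Ltbp1 in the same rat was also lowest, at 0.846 (4.22 against 7.63 to 8.49 CPM).

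The TBI effect differed between day 1 and day 14 by edgeR's interaction test for 8 genes of the wider pathway, each difference being the log2 effect at day 1 minus that at day 14. The target genes were Timp1 (4.62, adjusted p = 0.000413), Tgfbi (3.50, adjusted p = 0.000552), Tagln (3.22, adjusted p = 0.00245), Fn1 (3.20, adjusted p = 0.000529), Ctgf (1.58, adjusted p = 0.0482) and Id1 (1.26, adjusted p = 0.0401). The other genes were Fstl3 (4.66), which had 0 to 2 counts in sham day 1 and passed the low-count filter only through TBI day 1, so that its value is a description, and Ltbp2 (1.72, adjusted p = 0.0336). On leaving out 1 library at a time, the call was lost in 10 of 14 fits for Ctgf, 9 for Id1 and 8 for Ltbp2, and in 0 for Timp1, Tgfbi, Tagln and Fn1. None of the 10 genes described in the report was among them.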

How the results depend on the processing

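The Tgfb1 rise passed under every alternative run, at both days. Over the fold changes of named genes, 1398 of 1579 alternative values kept their direction and side of the threshold, 142 lost the call, 18 gained it and 21 changed sign. The 2 sham rats at day 1 limit what day 1 can show.

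Fitted on only the groups compared, 1 member was higher and 0 lower at day 1, 5 higher and 1 lower at day 14, 2 higher and 0 lower in TBI day 1 against sham day 14, and 2 higher in sham day 1 against sham day 14; the wider pathway had 7 higher and 0 lower at day 1 and 6 higher and 2 lower at day 14. At an adjusted p under 0.01, 1 member was higher and 1 lower at day 1, 0 lower in TBI day 1 against sham day 14, 0 higher and 0 lower between sham groups and 1 higher between TBI groups, and 0 wider pathway genes were lower at either day. With all 6 sham rats as 1 baseline, 1 member was higher and 1 lower at day 1, 7 wider pathway genes were lower, and the day 1 fold changes of Tgfbr1 (0.26), Ltbp1 (-0.12) and Ltbp2 (-0.018) and the day 14 one of Tgfb2 (-0.15) changed sign. With the choroid plexus score as covariate, Tgfb2 at day 14 was -0.022, and 0 members were lower in TBI day 1 against sham day 14 or higher between sham groups. Without the 3 libraries with high choroid plexus markers, 1 member was lower at day 1, 2 were higher and 0 lower in TBI day 1 against sham day 14, 0 were higher between sham groups, Inhba at day 14 was 0.025, and the differences between days of Tgfb1 (0.10) and Tgfbr2 (0.068) changed sign. DESeq2 called 2 members lower in the difference between days and 2 higher in TBI day 1 against sham day 14, and limma-voom 0 wider pathway genes lower at day 14.

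Correlations ran from -0.04 to 0.24 over 6 same-number pairs and from -0.43 to 0.21 over 18 other pairs. Of the day 14 rats, 4 of 8 were closest to their own number. With 2 sham rats at day 1, their centred values mirror each other, so these correlations cannot decide whether the numbers pair rats. The replicate block called 2 members lower in the difference between days (Tgfb2 at -1.16 and Smad7 at -0.87), 2 higher in sham day 1 against sham day 14, and 0 wider pathway genes lower at day 14.

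Leaving out each library in turn gave 1 to 3 members higher and 1 to 2 lower at day 1, 6 to 21 wider pathway genes higher and 1 to 4 lower at day 1, and 2 to 4 higher and 0 to 1 lower at day 14. It gave 0 to 3 members lower in the difference between days (3 without TBI day 1 replicate 4), 1 to 3 higher and 0 to 2 lower in TBI day 1 against sham day 14, 0 to 2 higher and 0 to 1 lower between sham groups, and 1 to 3 higher between TBI groups (1 without TBI day 14 replicate 1). Fold changes whose sign turned ran at day 1 from -0.015 to 0.84 (Inhba), -0.55 to 0.020 (Tgfbr1), -0.34 to 1.15 (Tgfbr2) and -0.26 to 0.72 (Ltbp1), and at day 14 from -0.29 to 0.046 (Inhba). In the difference between days they ran from -0.54 to 0.36 (Tgfb1), -0.054 to 0.47 (Tgfb3), -1.13 to 0.36 (Tgfbr2) and -0.25 to 0.074 (Nrros). The cause of these changes was not tested.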

Other observations

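The genes whose log2 CPM, centred on each gene's mean, ran closest to that of a called gene over the 14 libraries were listed by root mean square difference, as a description. For Tgfb1, with a spread of 0.95 around its own mean, they were Slc7a7 (0.21), P2ry6 (0.25) and Cyth4 (0.25). For Nrros (spread 0.51) they were Tapbp (0.19), Edem2 (0.20) and Ctsa (0.20). For Tgfb2 (spread 0.36) they were Lurap1 (0.18), Tbc1d9 (0.20) and Ccdc34 (0.20), and for Smad7 (spread 0.28) Pard3 (0.11), Sipa1l1 (0.12) and Coq2 (0.12).

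Inhbb, which encodes the other main activin beta subunit, lay outside the naming rule and was singled out after its values were seen. It was lower in TBI day 1 than in sham day 14 (log2 fold change -1.17, edgeR adjusted p = 0.0251) and higher in TBI day 14 than in TBI day 1 (1.15, adjusted p = 0.0319), while neither time-matched comparison passed. The TBI day 1 rats were scattered, from 1.76 to 14.8 CPM. Sham day 1, at 7.19 to 12.1 CPM, also lay below sham day 14, at 15.1 to 21.4 CPM.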
